A study of Mus musculus with 4 samples.

Results

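The genes described here were grouped as products of late red cell development. They are the globins Hba-a1, Hba-a2, Hbb-b1 and Hbb-bh1, and the red cell membrane genes Gypc, Xk, Ank1 and Slc4a1. They were chosen by name, as the non-control spots whose gene name in the array files equals 1 of these 8. The rule found 9 probes for the 8 genes, of 55681 probes for 36315 names on the array. Xk has 2 probes and each other gene has 1, with 1 spot per probe on each array.

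The arrays compared 32D-EpoR cells with and without erythropoietin (Epo), the hormone that drives red cell formation. 32D is a mouse myeloid progenitor line that depends on interleukin-3, and the cells here carry an introduced Epo receptor. All cells were moved from medium with 10% WEHI-conditioned supernatant, a source of interleukin-3, to medium with 10% serum alone. The treated group was then given Epo at 10 U/ml and the control group none, with 2 arrays per group from independent experiments on different passages. The labels used here state neither the time with Epo nor whether the line is 1 clone.

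Hemoglobin carries oxygen as pairs of alpha and beta chains, each around a heme. In the mouse Hba-a1 and Hba-a2 are near-identical adult alpha genes, Hbb-b1 encodes an adult beta chain, and Hbb-bh1 encodes a beta-like chain of the embryo. The red cell membrane is held by a spectrin skeleton, which ankyrin (Ank1) ties to the anion exchanger band 3 (Slc4a1) and which glycophorin C (Gypc) anchors through protein 4.1. Xk is a membrane protein that pairs with the Kell antigen. The globin transcripts accumulate mainly in the last divisions of erythroblasts, whereas Gypc is made in many blood cells.

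What each globin probe reads decides how its value can be named. Both alpha probes are listed in the files under the accessions of both alpha genes, so the signal of Hba-a1 and that of Hba-a2 cannot be told apart by gene. The Hba-a1 probe starts at base 161 of its transcript (chr11:32183955-32184014, plus strand, mouse build mm9). The Hba-a2 probe starts at base 497 (chr11:32197245-32197304, plus strand, mm9) and holds the poly(A) signal AATAAA, capitalised in a stretch of it below. The Xk probes start at bases 2905 and 4815 of the same transcript, 1910 bases apart, and the first 30 bases of each are shown because their signals differ. Labelling was primed on the poly(A) tail, per the labels' protocols.
Hba-a1 probe: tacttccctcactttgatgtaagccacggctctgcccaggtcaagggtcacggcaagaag
Hba-a2 probe, stretch: tcttggtctttgAATAAAgcctgagtagga
Xk probe at 2905: ggcacccctatttgtgattctatgggatag
Xk probe at 4815: aatgtgaatgtaatctgtacagttttgtaa

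The other globin probes lie on chromosome 7 of mm9, that of Hbb-b1 at chr7:110961105-110961164 and that of Hbb-bh1 at chr7:110990209-110990268, both on the minus strand. The accession that the files give for Hbb-b1 belongs to Hbb-bt, an adult beta gene, in the RefSeq table of GRCm38.p6. The Xk probes lie on chromosome X at chrX:8888234-8888293 and chrX:8890144-8890203, the Ank1 probe at chr8:24259068-24259127 and the Slc4a1 probe at chr11:102210256-102210315. All are placed within transcripts by the files. Which of them read coding and which untranslated sequence was not analysed here. No member probe shared a run of 20 bases with any other probe on the array.

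The upstream sequence of the alpha genes does not part them either. The 250 bases before the start of Hba-a1 and of Hba-a2, from RefSeq on GRCm38.p6, aligned with 247 identities, 0 mismatches and 6 end gaps, because the annotated starts differ by 3 bases. Promoters were in the table for 3 of the 8 members by name, and for Hbb-bt, the RefSeq gene matched to the Hbb-b1 probe. Both strands were searched for the letters GATAA (read by GATA factors), for CACCC (read by Kruppel-like factors), for the CCAAT box, for the TATA motif TATAA, and for TTCNNNGAA (read by STAT factors). Matches are in capitals below and do not overlap in these windows. The Hba-a1 window held the GATA motif at 182 bases before the start, the CACCC motif at 167 and at 60, the CCAAT box at 88 and the TATA motif at 27. The Xk window, with a GC content of 77.2% against 54.0% for Hba-a1, held 1 CACCC at 7 bases before the start. Neither held the STAT motif. The Hbb-bt window, not printed here, held 1 GATA, 3 CACCC, 3 CCAAT and 2 TATA matches and no STAT motif. Among 27025 promoters of this length, 23.0% held the GATA motif, 51.3% the CACCC motif, 34.5% the CCAAT box, 23.5% the TATA motif and 7.18% the STAT motif. A match describes letters in a window and no binding was measured.
Hba-a1, chr11:32283422-32283671, plus strand, GRCm38.p6: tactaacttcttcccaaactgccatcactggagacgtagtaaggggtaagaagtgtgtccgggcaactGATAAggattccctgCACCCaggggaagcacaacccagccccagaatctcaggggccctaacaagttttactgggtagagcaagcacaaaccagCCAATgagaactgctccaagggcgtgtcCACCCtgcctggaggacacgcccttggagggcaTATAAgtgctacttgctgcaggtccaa
Xk, chrX:9272534-9272783, plus strand, GRCm38.p6: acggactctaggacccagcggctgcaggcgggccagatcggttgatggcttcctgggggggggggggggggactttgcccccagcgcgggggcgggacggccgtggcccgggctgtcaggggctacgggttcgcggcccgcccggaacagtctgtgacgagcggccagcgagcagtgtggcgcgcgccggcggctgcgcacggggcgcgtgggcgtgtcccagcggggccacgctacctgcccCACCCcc

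The question was which of these genes changed with Epo. Of the 8 members, 5 could be tested: Hba-a1, Hba-a2, Hbb-bh1, Gypc and Xk. Xk rose about 2-fold, Hba-a2 fell slightly with a p close to the threshold, and Hba-a1, Hbb-bh1 and Gypc did not pass the test. Hbb-b1, Ank1 and Slc4a1 were too dim on at least 1 array of each group to be tested. A probe is called well above background when the scanner software flags its signal as both significant and clearly larger than the background noise. By that flag 4 of the 9 probes were above background on all 4 arrays (Hba-a1, Hba-a2, Gypc and the downstream Xk probe), and 2 on no array (Ank1 and the upstream Xk probe).

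**Figure D1:**
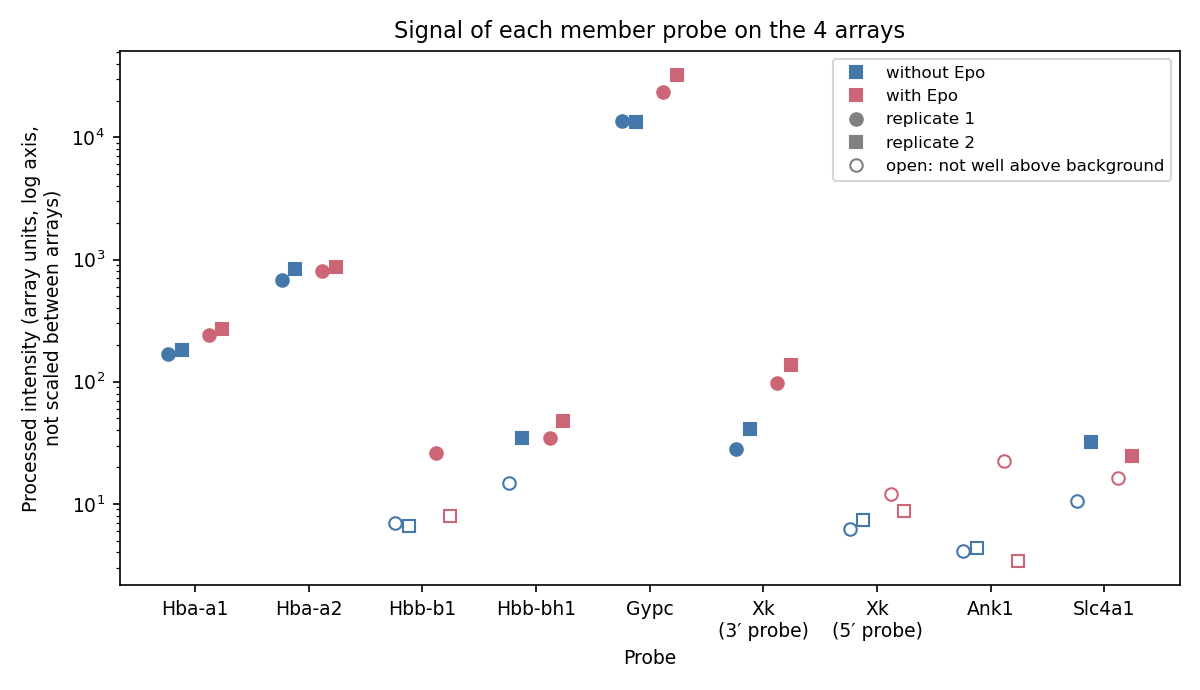
Processed intensity (log axis, array units, not scaled between arrays) of the 9 member probes on each of the 4 arrays, with circles for replicate 1, squares for replicate 2, and open symbols where the probe was not well above background. The Gypc, Hba-a1, Hba-a2 and downstream (3′) Xk probes are filled on every array, whereas the upstream (5′) Xk probe and Ank1 are open on every array. Levels of different probes cannot be compared with each other.

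The arrays as a whole set the scale for these values. Their 75th percentile of intensity was 224 and 250 units without Epo and 347 and 454 with Epo, so changes are given relative to that percentile unless stated otherwise. The median log2 change of all 17555 genes tested was -0.062 after scaling and 0.68 without it. The fit without scaling gave every member the same SE, 0.32, so its p-values take no account of a gene's own spread. All 7 genes of a list of known Epo and STAT5 responders rose, with a median log2 change of 3.42. Like the other lists, it was chosen with earlier results of these data known. Of 14 myeloid progenitor and granulocyte markers 12, among them Mpo, Elane, Prtn3 and Ctsg, were well above background on all 4 arrays, while Kit was so on none. The same held for 5 of 9 red cell, 4 of 8 mast cell and basophil, 6 of 7 megakaryocyte, 4 of 7 macrophage and 2 of 7 lymphoid markers. Summed scaled intensities without and with Epo ran over 12517 to 14275 and 8818 to 8881 for the 5 tested red cell markers (2 of 5 fell, 0 rose). Gata1 made up 75.3% to 81.0% of that sum, 2 of the 5 are members, and both falls (Gata1 and Hba-a2) lay above 0 without scaling, where the median was 0.26 against -0.49. They ran over 227288 to 241860 and 201854 to 220751 for the 13 myeloid markers (1 rose, 2 fell). For the 4 mast cell markers (1 fell) they ran over 4823 to 5566 and 3258 to 4015, and for the 7 megakaryocyte markers (1 fell) over 50978 to 62140 and 44935 to 52392. For the 4 macrophage markers (1 rose, 1 fell) they ran over 4621 to 4791 and 5530 to 5982, and for the 2 lymphoid markers (both fell) over 1190 to 1388 and 655 to 706. Of these sums Ctsg made up 42.8% to 47.5% (myeloid), Pf4 52.2% to 57.1% (megakaryocyte) and Adgre1 35.4% to 60.5% (macrophage). Hdc made up 27.8% to 39.6% (mast cell) and Cd4 62.5% to 72.2% (lymphoid). Without scaling the median changes were 0.43 (myeloid), 0.34 (mast cell), 0.59 (megakaryocyte), 0.81 (macrophage) and -0.23 (lymphoid). Both myeloid falls and the megakaryocyte fall then lay above 0, and the mast cell, macrophage and lymphoid falls below it. Alas2, Fcer1a, Ms4a2, Tpsab1, Mrc1, C1qa, Cd3g, Cd79a, Ms4a1 and Ncr1 were well above background on no array. These counts are after scaling, where 13.1% of all genes tested were higher and 14.3% lower. With the replicate block 19.9% of all genes were higher and 23.2% lower. In that setting 1 red cell marker fell, 6 myeloid markers fell and 1 rose, 2 mast cell markers fell, and 2 megakaryocyte markers rose and 2 fell. Of these 2 megakaryocyte rises 1, Ppbp, was well above background on no control array. It was tested only because of the Epo arrays, where it is high, so its count as a rise is no support for one. The part of these cells in the results below was not tested.

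Alpha globin signal was present in both groups. The Hba-a1 probe read 167 and 180 intensity units without Epo and 242 and 268 with Epo, and was well above background on all 4 arrays. After scaling, its log2 values were 7.84 and 7.79 without Epo and 7.74 and 7.50 with Epo. The treated arrays were thus brighter before scaling and slightly lower after it, and the groups did not overlap in either case. The scaled log2 level averaged 7.81 ± 0.036 in the controls and 7.62 ± 0.17 in the treated arrays (SD, n = 2 each). The log2 change was -0.19 ± 0.14 (SE), with a limma adjusted p of 0.341 and a 95% interval from -0.55 to 0.17. That interval leaves room for a fall to 0.682-fold or a rise to 1.12-fold. Without scaling the change was 0.55 (adjusted p 0.133). In bulk RNA, fewer cells that hold a transcript and less of it per cell cannot be told apart.

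The second alpha probe gave the one globin change past the threshold. The Hba-a2 probe read 682 and 843 units without Epo and 809 and 863 with Epo, all well above background, and on this unscaled level the groups overlapped. After scaling, its log2 values were 9.87 and 10.01 without Epo and 9.48 and 9.19 with Epo, so both treated arrays lay below both controls. The controls averaged 9.94 ± 0.10 and the treated arrays 9.33 ± 0.21 (SD, n = 2 each). Hba-a2 fell by 0.61 ± 0.15 (SE) on the log2 scale, to 0.657-fold, with a limma adjusted p of 0.0490. The fall was 0.39 in replicate number 1 and 0.82 in replicate number 2.

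The p of this call lay close to the threshold, and the fall stayed of like size in most settings where the call was lost. Some of these settings (the filter, the choice of probe and the block) could not move its size. With the replicate number as a block the change was the same and the limma adjusted p was 0.0560. Leaving out an untreated array gave 0.0742 (replicate 1) or 0.140 (replicate 2), and leaving out a treated one 0.0772 (replicate 1) or 0.208 (replicate 2), with changes of -0.68, -0.53, -0.75 and -0.46. Each of these 4 fits has 1 array in a group, which is assumed to vary like the other group. Without scaling the change was 0.14 and thus above 0 (adjusted p 0.712). The call held in 5 of 15 alternatives, with adjusted p from 0.0291 to 0.712. Because both alpha probes carry the accessions of both genes, the 2 probes give 2 readings of the alpha genes, of which 1 passed. Whether their changes differ was not tested.

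Adult beta globin was at or near background. The Hbb-b1 probe read 7.03 and 6.54 units without Epo, neither well above background. Its value of 6.54, on replicate 2, was a surrogate set by the scanner software. With Epo it read 26.0 on replicate 1, where it was well above background, and 7.98 on replicate 2, where it was not. The treated arrays differed from each other by 2.09 on the log2 scale and the controls by 0.27, and Epo replicate 2 lay below both controls after scaling. Among the 31937 probes that were not kept, 3.59% differed by more than this between the 2 Epo arrays. No fold is given, because the mean with Epo (log2 3.48) lay below the lowest values that count as above background without Epo (4.62 and 4.61). Alpha probes were therefore detected on all 4 arrays and the adult beta probe on 1 of 4, which compares detection and not level.

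The embryonic beta-like gene Hbb-bh1 was dim. It read 14.9 units on replicate 1 without Epo, where it was not well above background, and 34.9 on replicate 2. With Epo it read 34.8 and 48.1, both well above background. Its log2 scaled values were 4.35 and 5.42 without Epo and 4.94 and 5.02 with Epo, so the treated arrays lay between the controls. The log2 change was 0.10 ± 0.37 (SE), with a limma adjusted p of 0.857 and a 95% interval from -0.88 to 1.08. The sign depended on 1 control array: the change was -0.43 without replicate 1 of the untreated group and 0.63 without replicate 2. Without scaling the change was 0.85 (adjusted p 0.0218), although the unscaled groups overlapped. The gene was tested only because both Epo arrays were above background. With the normexp background it was -0.35 (adjusted p 0.106).

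The remaining globins gave no tested gene. Of 9 further names on a list of other globins and their chaperone, 7 were on the array by name, and 6 of these were well above background on no array. These 6 were the embryonic chains Hba-x and Hbb-y, the adult Hbb-b2, the theta-like Hbq1a and Hbq1b, and Ahsp, which binds free alpha chains. Hbb-bh2 was well above background on 1 array.

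Gypc, the glycophorin that links the skeleton to the membrane, was far above background in both groups. Its probe read 13644 and 13475 units without Epo and 23451 and 32354 with Epo. After scaling the log2 values were 14.19 and 14.01 without Epo and 14.34 and 14.41 with Epo, so both treated arrays lay above both controls, by a small margin. The controls averaged 14.10 ± 0.13 and the treated arrays 14.38 ± 0.053 (SD, n = 2 each). The log2 change of 0.28 ± 0.13 (SE), or 1.21-fold, did not pass (limma adjusted p 0.172). Its 95% interval ran from -0.060 to 0.61. Without scaling Gypc passed at 1.02 (adjusted p 0.00538), in a setting where 46.9% of all genes were called higher, and with the normexp background at 0.41 (adjusted p 0.0495).

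Xk, the partner of Kell, was the member that rose. Its downstream probe read 28.3 and 41.1 units without Epo and 97.3 and 138 with Epo, and was well above background on all 4 arrays. The log2 scaled values were 5.28 and 5.65 without Epo and 6.43 and 6.54 with Epo, with a clear gap between the groups. The controls averaged 5.46 ± 0.27 and the treated arrays 6.48 ± 0.081 (SD, n = 2 each). Xk rose 2.03-fold (95% interval 1.48 to 2.77), a log2 change of 1.02 ± 0.17 (SE), at a limma adjusted p of 0.0186. The difference was 1.15 in replicate number 1 and 0.89 in replicate number 2, and with the number as a block the adjusted p was 0.0158.

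The size of the Xk rise depended on the background correction, and the control signals lay close to background. The raw mean of the spot was 58.3 and 70.8 units without Epo and 127 and 156 with Epo, over a local background of 17 to 20. With the normexp correction, which adds an offset of 50 to every signal, the change was 0.22 (adjusted p 0.169). With the same correction and no offset, an alternative chosen after seeing the data, it was 0.69 (adjusted p 0.0191). Without replicate 2 of the Epo group it was 0.96 (adjusted p 0.0584). The call held in 12 of 15 alternatives, and the change was above 0 in all 15. Settings of the filter, the outlier spots, the choice of probe and the block could not move the change.

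The upstream Xk probe did not show the change. It read 6.18 and 7.35 units without Epo and 12.1 and 8.75 with Epo, and was well above background on no array. Its value of 7.35, on replicate 2 without Epo, was a surrogate set by the scanner software. Its log2 scaled values were 3.08 and 3.17 without Epo and 3.42 and 2.56 with Epo, which overlap. A probe at background bounds nothing about a rise from a dim level, so it neither repeats nor opposes the downstream reading. Kel, the gene of the Kell protein, was well above background on no array.

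Ank1 and Slc4a1, which join the skeleton to the membrane, were too dim to test. Ank1 read 4.10 and 4.34 units without Epo and 22.4 and 3.40 with Epo, and was well above background on no array. Of these, the values on both control arrays and on Epo replicate 2 were surrogates set by the scanner software. The Epo arrays differed by 3.11 on the log2 scale, and 1.23% of the probes not kept differed by more. Slc4a1 read 10.6 and 32.2 units without Epo and 16.1 and 24.6 with Epo, and was well above background on replicate 2 of each group. Its log2 scaled values of 3.86 and 5.30 without Epo and 3.83 and 4.05 with Epo overlap. Neither gene has a level in either group that a fold could be taken from.

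Set against the whole array, the members did not stand apart in how many were called. At a limma adjusted p of 0.05, 13.1% of the 17555 genes tested were higher with Epo and 14.3% were lower, 27.4% in all. Of the 5 tested members 1 was higher (Xk) and 1 lower (Hba-a2), with a median change of 0.10 against -0.062 for all genes. That median is the value of Hbb-bh1 (SE 0.37), which was tested only through the Epo arrays and whose sign depended on 1 control array. The groups did not overlap for 4 of the 5 members (Gypc and Xk higher, Hba-a1 and Hba-a2, both readings of the alpha genes, lower). That was so for 68.8% of all genes, 30.4% higher and 38.4% lower. The log2 change of Xk was exceeded by 5.98% of all genes, and 15.1% had a lower value than Hba-a2. The settings move both the members' calls and this background. Without scaling, with the common SE, 3 members were called higher (Gypc, Hbb-bh1 and Xk, of which Hbb-bh1 overlapped) and 0 lower, where 46.9% of all genes were higher and 2.07% lower. With the replicate block Xk was higher and no member lower, where 19.9% were higher and 23.2% lower. With the percentile taken over detected probes Xk was higher and Hba-a2 lower, where 10.7% and 20.8% were, and after quantile normalization the same 2 members were, where 12.6% and 13.1% were.

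**Figure D2:**
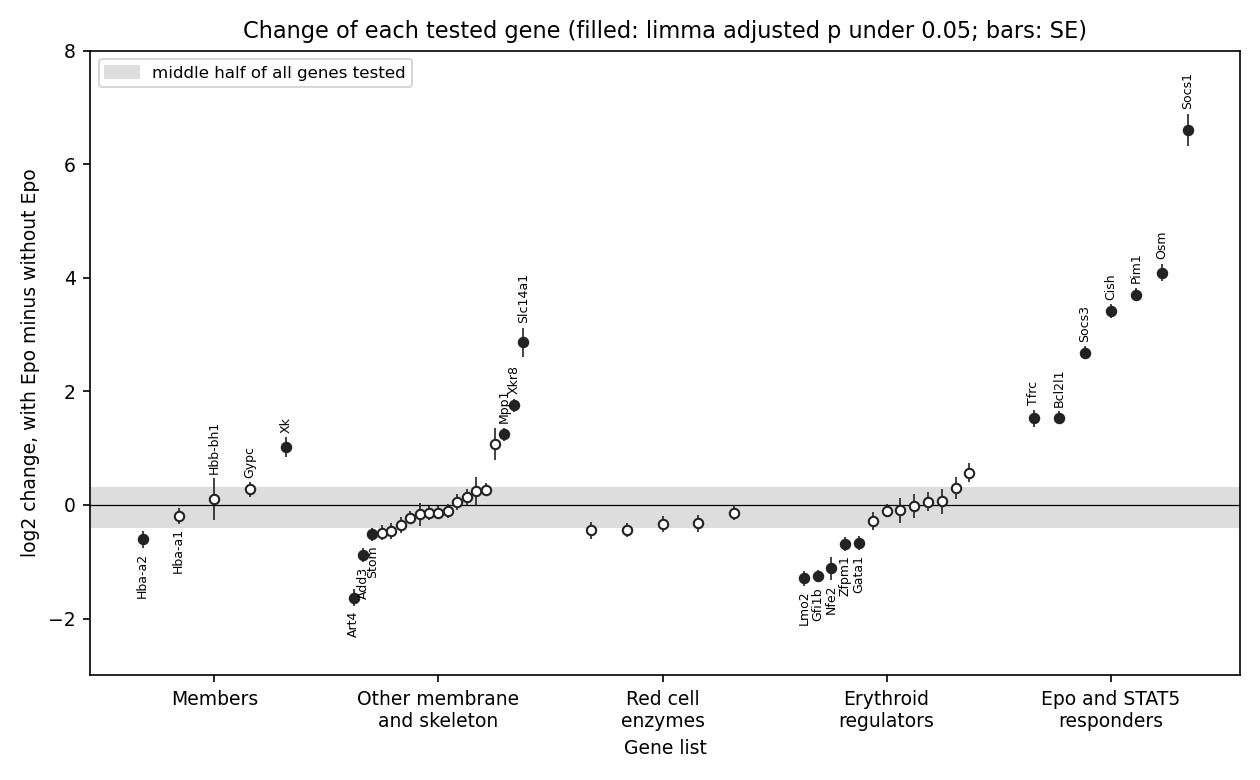
Log2 change (with Epo minus without Epo, bars SE) of each tested gene in 5 lists, filled where the limma adjusted p was under 0.05; the grey band spans the interquartile range of all genes tested, -0.39 to 0.31. Xk and Hba-a2 are the filled members, all 7 Epo and STAT5 responders are filled and above 0, and no red cell enzyme is filled. The Slc14a1 point rests on control arrays at background.

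Other membrane and skeleton genes moved in both directions. All 29 on the list were on the array, 19 were tested, and 3 rose, 3 fell and 13 did not pass, with a median change of -0.13 (0.61 without scaling). With the replicate block 4 rose, the fourth being the glucose transporter gene Slc2a1 (adjusted p 0.0120), and 3 fell. Xkr8, a lipid scramblase of the same family as Xk, rose by 1.75 ± 0.12 (SE; limma adjusted p 0.00456), from a log2 level of 6.59 to 8.34. The urea transporter gene Slc14a1, which carries the Kidd blood group, was not well above background without Epo and was so on both arrays with Epo. Its signal was at least 3.59-fold higher with Epo (measured log2 means 3.60 and 6.46, adjusted p 0.00622). It was tested only because of the Epo arrays, where it is high, so its place among the rises is no support for them. With the normexp background its log2 change was 0.76. Such a bound sets the mean with Epo against the lowest signal well above background on the control arrays. Mpp1, the palmitoylated partner of glycophorin C and protein 4.1, was the third rise, at 1.24 (adjusted p 0.00635). It is named after its values were seen, as are Stom, Slc2a1, Epb41 and Epb42 in this list.

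Among the falls, Art4, which carries the Dombrock blood group, fell by 1.63 ± 0.14 (SE; limma adjusted p 0.00622), and a second probe of it gave -1.41. Add3, an adducin of the skeleton, fell by 0.89 ± 0.12 (SE; adjusted p 0.0128). Stom, the membrane protein stomatin, fell by 0.52 (adjusted p 0.0388), although it lay at 0.23 without scaling. A second probe of Stom gave -0.47 ± 0.43 (SE), which did not pass when every kept probe was tested on its own. Sptb (a beta chain of spectrin), Rhag, Add2, Tmod1, Aqp1, Bcam and Cd59a were, like Kel, well above background on no array. Epb41, the protein 4.1 that glycophorin C binds, and Epb42 were detected on all 4 arrays, with changes of -0.22 and -0.49 that did not pass (adjusted p 0.222 and 0.0559).

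Red cell enzymes gave no call. Of 10 on the list 5 were tested, and limma called 0 of them, with a median change of -0.34 (0.40 without scaling). The smallest p belonged to Bpgm, which makes the oxygen-affinity regulator bisphosphoglycerate, at -0.44 (adjusted p 0.0544, and 0.0280 with the replicate block), and to the catalase gene Cat, at -0.44 (adjusted p 0.0937). A second Cat probe gave 0.026. At an unadjusted p under 0.05, 2 of the 5 passed, as did 7502 of all 17555 genes tested, a like share. With the replicate block 2 fell, Bpgm and the glutathione peroxidase gene Gpx1 (adjusted p 0.0453). The carbonic anhydrases Car1 and Car2, Pklr, Alas2 and Alox15 were well above background on no array.

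The transcription factors that act on globin and membrane genes were mostly detected. Of 14 on the list 13 were tested, 0 rose, 5 fell and 8 did not pass, with a median change of -0.10 (0.64 without scaling). With the replicate block the corepressor gene Cbfa2t3 rose (0.57, adjusted p 0.0226, against 0.0694 without it) and 5 fell. Lmo2, the bridge of the GATA1 and TAL1 complex, fell by 1.29 ± 0.13 (SE; limma adjusted p 0.00734). The repressor Gfi1b fell by 1.25 ± 0.11 (SE; adjusted p 0.00622). Without scaling Lmo2, Gfi1b and Nfe2 lay below 0 (-0.55, -0.51 and -0.37), and the other two of the 5 falls, Gata1 and Zfpm1, lay above it (0.070 and 0.058). Of the regulators named here only Lmo2 and Gfi1b were named by the rule. That rule itself picks called genes, and theirs were the largest of the 5 falls. The other regulators were named after their values were seen. Klf1, the factor that acts on beta globin, differed by -0.096 on the log2 scale (adjusted p 0.776).

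The nearest patterns to each tested member were found by the Euclidean distance between log2 values over the 4 arrays, each gene centred on its mean. For Xk they were the carrier genes Slc52a2 and Slc16a8, at distances of 0.034 and 0.041, with 10 genes within 0.1. For Hba-a2 they were Slc28a2 and Elobl, at 0.042 and 0.049, with 21 genes within 0.1. For Hba-a1 they were S100a9 and Atf5 (0.017 and 0.022), and for Gypc Stau2 and 9330151L19Rik (0.0088 and 0.022), with 115 and 118 genes within that distance. For Hbb-bh1 both were noncoding intergenic probes. Over 4 arrays such nearness describes these libraries only.

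**Figure D3:**
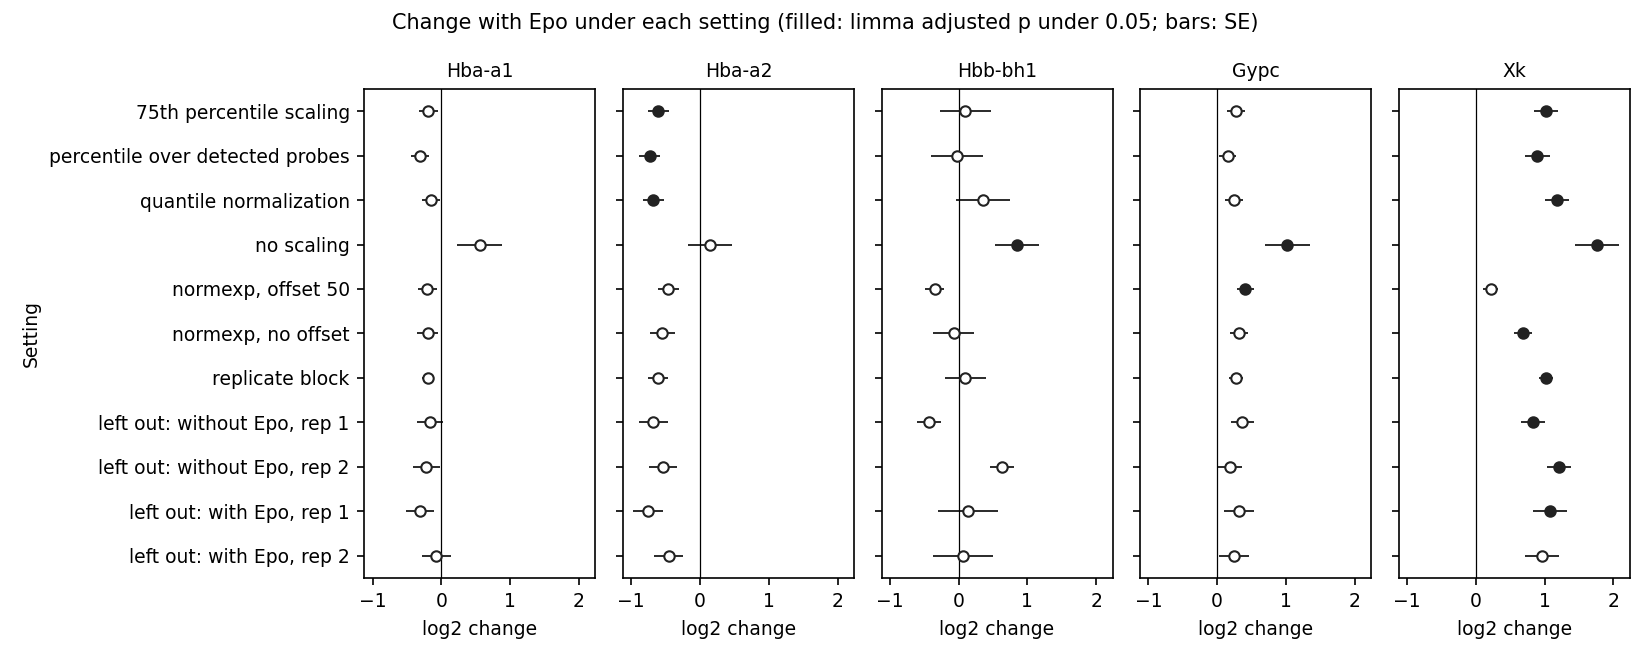
Log2 change (x axis, bars SE) of the 5 tested members under the scaling used here and 10 other settings (y axis), filled where the limma adjusted p was under 0.05. Xk lies above 0 in every setting shown, Hba-a2 lies below 0 in each except without scaling, and Hbb-bh1 lies on either side of 0.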

How the data were processed

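Each array file holds, per the file headers, the scanner output of Agilent Feature Extraction 10.1.1.1: a processed intensity for each spot, detrended and background-adjusted by the authors' scanner software, with surrogate values for the dimmest spots, and the raw mean and local background intensity. The submitters' processing notes name limma, with no version or role. Nothing was scaled between arrays. All 4 arrays lay on 1 slide.

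Processed intensities were put on a log2 scale, and each array was shifted so that its 75th percentile (59305 spots, controls left out) met the mean percentile. Outlier spots were left out (108 to 150 of 55681 probes on each array), and no spot was saturated. This dropped 9 probes that passed the filter given next. Probes had to be well above background on 2 of 2 arrays in 1 group or the other, and a gene was its kept probe with the highest mean, which left 17555 genes. Gene names were updated through a RefSeq table of GRCm38.p6 (26413 probes by accession, 3859 by symbol, 735 by synonym), except that members kept the file's name. Treated and control arrays were compared by limma's two-sided moderated test (limma version 3.58.1, R version 4.3.3; 2 residual and 4.57 total degrees of freedom). P-values were adjusted by Benjamini-Hochberg across every gene tested, with calls made under 0.05. SEs of log2 changes had a median of 0.14. The number of arrays limits the precision. The steps were tested on simulated data.

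The members and lists were chosen with earlier results of these data known. Named genes are the 8 members, at most 2 called rises and 2 called falls per list (or the 2 smallest p), and the 2 genes nearest to each tested member in pattern. A few others are named where a count or a role called for it, after their values were seen. The design text's independent experiments were read as the replicate numbers. Deviations from the group mean correlated at 0.386 between arrays of the same number (r across genes, and genes are not independent). Alternatives covered background correction, scaling, the filter on dim probes, outlier spots, the choice of probe, the replicate block and each array left out. Sequences are those of the array files and of RefSeq. Some genes of the lists are counted but not reported by name here.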

Additional observations from a re-analysis of the deposited data

How the results depend on the processing

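Over the 15 alternatives, the direction of Xk and Gypc held in all 15, that of Hba-a1 and Hba-a2 in all but the one without scaling, and that of Hbb-bh1 in 10 of the 14 that tested it. Settings of the filter, the outlier spots, the choice of probe and the replicate block left each estimate they gave unchanged. The direction in those settings was thus fixed in advance. Of the 5 tested members limma called 2 in the main setting. With the normexp background it called 1, which was Gypc and neither of the main calls with the offset (6404 of 17555 genes called). With no offset the 1 called was Xk (5174 genes called). It called Xk alone with every kept probe on its own (6143 of 23735 probes called) and with the replicate block. Without a filter on dim probes it called 0 of 8 members and 0 of 36310 genes (2 members and 7148 genes had an unadjusted p under 0.05). Hba-a2 lay at 0.14 without scaling. Over the whole array 4804 genes were called, 8595 without scaling (8231 higher and 364 lower), 7565 with the replicate block and 2273 to 3963 with 1 array left out. The split of 2302 higher against 2502 lower was 1878 against 3651 with the percentile over detected probes. The block changed the call of Hba-a2 (adjusted p 0.0560) and of no other member, and it added calls in other lists. Apart from the construction of these settings, the cause of the changes was not tested. Signal over background limits Hbb-b1, Hbb-bh1, Ank1, Slc4a1 and the size of the Xk rise.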
